A study of Arabidopsis thaliana with 24 samples.

Results

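Overexpression of the autophagy cargo receptor NBR1 was examined in shoots of Arabidopsis thaliana grown with sufficient sulfur (nS). The comparison rested on 6 of the 24 arrays of the series, namely the 3 of OX7.5 shoots and the 3 of WT shoots whose titles do not mention low sulphate, and on the 16552 genes that had a probe set of their own on the Affymetrix Arabidopsis Gene 1.1 ST array. WT was the accession Col-0 and the parent of OX7.5, a single transgenic line in which a constitutive viral promoter drives NBR1 with a C-terminal TAP tag, so a difference between the lines belongs to this one line and its insertion as well as to NBR1. All plants were labelled as 33 days old, and each group had 3 biological replicates. The labels name soil as the substrate while the methods describe hydroponic culture, and according to the labels the shoots were divided and one portion was kept cold in RNAlater before extraction, in both lines alike. The other arrays held shoots of the same lines in sulfur deficiency (-S) and roots in nS and -S, and they served here to pool the spread and as separate comparisons.

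NBR1 is a selective autophagy receptor. It binds ubiquitinated proteins through its UBA domains and ATG8 on the growing autophagosome, and it is itself delivered to the vacuole and degraded with its cargo. Selective autophagy in plants removes aggregates and damaged proteins, and NBR1 has been studied most in heat, pathogen attack and nutrient shortage. The comparison asks which transcripts differ in the shoot when the receptor is in excess and the sulfur supply is not limiting.

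NBR1 itself (AT4G24690) had no probe set of its own in the annotation used, so the level of the overexpressed transcript could not be checked on these arrays. By RT-qPCR on the material of the arrays, the study reported more NBR1 transcript in OX7.5 than in WT, in both organs. The shoot label was checked with the levels of 5 leaf markers. Mean log2 levels of RCA, LHB1B2, LHCB4.1 and LHCB4.2 lay between 8.39 and 11.2 in either line. LHCB4.3 was low, with 2.94 in WT and 3.35 in OX7.5. None of the 5 passed the test between the lines, a result that does not bear on the organ. The sums of their log2 levels lay between 43.0 and 44.0 on the WT arrays and between 43.2 and 43.7 on the OX7.5 arrays. Of 6 measured root markers none passed either, and the sums of their log2 levels were 18.6 to 21.8 in WT and 18.4 to 19.3 in OX7.5. EXPA7, EXPA18 and LBD16 were under the array median on all 6 arrays, while PYK10, a myrosinase of ER bodies, varied widely and is described with the lectins below. Array medians lay between 3.92 and 3.97, and arrays of one line correlated across genes at 0.978 to 0.985 in WT and at 0.985 to 0.99 in OX7.5.

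A total of 531 genes (3.21% of all genes tested) were differentially expressed (DEGs), that is, they differed by 1.5-fold or more with an unadjusted p under 0.05. Of these, 253 were higher (1.53%) and 278 were lower (1.68%) in OX7.5. With a Benjamini-Hochberg adjusted p under 0.05 (limma), 281 genes passed (1.7%), 151 of them higher (0.912%) and 130 lower (0.785%). The words rose and fell are used below only for genes with such an adjusted p. Most differences were small, with a median log2 difference of 0.805 for the higher and -0.751 for the lower DEGs, against -0.00357 over all genes. A fold of at least 2 with an unadjusted p under 0.05 was met by 77 higher and 49 lower genes, and a fold of at least 4 with an adjusted p under 0.05 by 11 higher and 2 lower genes. The 3 OX7.5 arrays did not overlap with the 3 WT arrays in 274 of the 281 genes with an adjusted p under 0.05, while over all genes 6.72% lay wholly above and 7.76% wholly below.

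**Figure D1:**
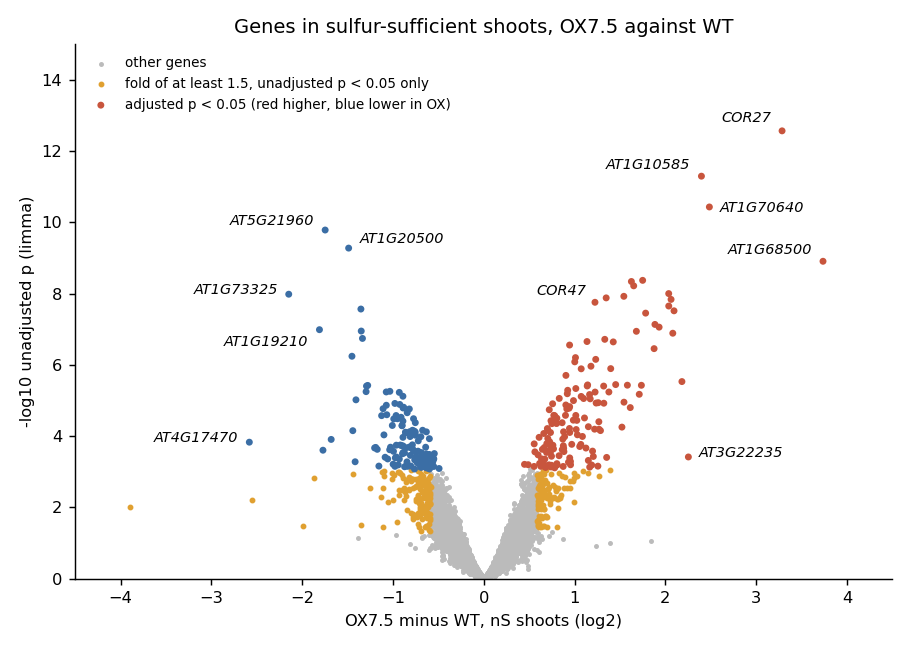
Difference between OX7.5 and WT in nS shoots (log2 scale, x axis) against the unadjusted p of limma (-log10 scale, y axis), with 1 point for each of 16552 genes. The 151 genes that rose and the 130 that fell are red and blue. AT1G68500 and COR27 lie farthest to the right among the rises, and the point farthest to the left, AT3G01345 at -3.89, did not pass an adjusted p under 0.05.

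The WT arrays were not alike. The median log2 level of the 253 higher DEGs was 4.72, 5.17 and 4.62 in WT replicates 1, 2 and 3, and 5.64, 5.82 and 5.87 in OX7.5. Replicate 2 of WT thus lay nearest to OX7.5, and it held the highest of the 3 WT levels in 175 of the 253 higher DEGs (69.2%, against 31.3% of all genes) and the lowest in 158 of the 278 lower DEGs (56.8%, against 32.2%). The spread within WT was also wider than that within OX7.5, with median SDs of 0.191 and 0.159. Without WT replicate 2 the count of DEGs was 867 in place of 531 and that of genes with an adjusted p under 0.05 was 421 in place of 281, while leaving out any other of the 6 arrays left 152 to 186 genes with such a p. No batch, array position or time of harvest was available, and the part of any of them in the difference between the lines was not tested. In bulk tissue such as these shoots, fewer cells of a type and less RNA per cell cannot be told apart.

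The largest rise belonged to AT1G68500, a gene without a name in the files. Its log2 level was 3.25, 5.20 and 2.71 in WT against 7.49, 7.27 and 7.61 in OX7.5, a 13.3-fold difference (log2 3.74, SE 0.39, adjusted p = 3.4e-06 in limma). All OX7.5 arrays were above all WT arrays, and WT replicate 2 was again the highest of WT. COR27, a cold-induced repressor that also acts in the circadian clock and in light signalling, followed with 4.42, 5.43 and 4.08 in WT against 7.73, 7.90 and 8.16 in OX7.5. This was a 9.74-fold rise (log2 3.28, SE 0.23) and carried the smallest adjusted p of all genes, 4.5e-09. The SEs of both genes rest on the spread pooled over all groups, roots included. Within the WT nS shoot arrays the SD was 1.31 for AT1G68500 and 0.70 for COR27. Under the alternatives of limma and ordinary ANOVA the adjusted p was at most 0.031 and 0.0074 in this order.

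AT1G70640 rose from 6.66, 7.49 and 7.52 to 9.45, 9.97 and 9.71, a log2 difference of 2.48 with an SE of 0.22. AT1G10585 rose from 3.82, 4.01 and 3.41 to 5.62, 6.29 and 6.52, a log2 difference of 2.40 with an SE of 0.19. Neither gene showed an overlap between the lines. The neighbour of AT1G10585, AT1G10580, overlaps with it in the gene table and was 1.54 higher on the log2 scale, so the signals of these 2 genes may not be independent. AT4G25433 was the next in size among the genes whose call held when each array was left out, with 6.20, 6.89 and 5.22 in WT against 8.22, 8.15 and 8.49 in OX7.5 (log2 difference 2.18). The remaining genes among the 15 largest rises, AT5G47330, AT1G16850, AT1G32860, AT1G04570, AT5G06570, AT1G17665, AT3G04010, AT4G28140, AT1G07050 and AT3G22235, had log2 differences between 1.78 and 2.25. In 12 of the 15 the highest WT level was on replicate 2, and in 7 the WT mean was under the array median of 3.95, where probe sets report little signal. The call of 14 of the 15 held whichever array was left out. The exception was AT3G22235 with 4.05, 3.96 and 3.70 in WT against 5.81, 6.07 and 6.59 in OX7.5, whose adjusted p of 0.030 rose to as much as 0.14.

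**Figure D2:**
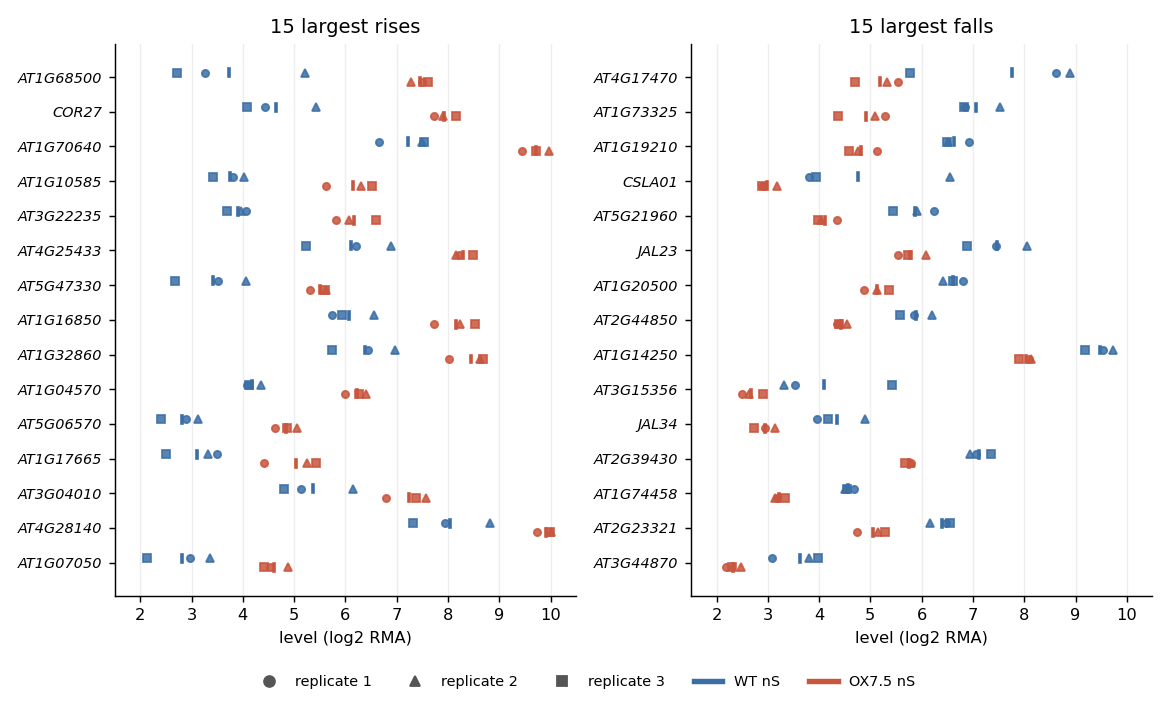
Levels (log2, x axis) of the 15 genes with the largest rises and the 15 with the largest falls on each of the 3 WT and 3 OX7.5 arrays of nS shoots, with genes on the y axis, a marker for each array and a vertical bar for the mean of each line. Points of the lines do not overlap in any gene shown, and WT replicate 2 is the highest WT point in 12 of the 15 largest rises.

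COR27 was not alone among genes of the clock and of the cold response. Plants time transcription to the day with a set of mutually repressing factors, and cold acclimation switches on COR, KIN and LTI genes whose products protect membranes and proteins during freezing and water loss. Of 31 listed clock genes 4 had a probe set of their own, COR27 among them, and 3 of the 4 rose, against 0.912% of all genes. The list was chosen with earlier results of these data known, so this count is a description and not a test of the clock. AT4G33980 went from 2.75, 3.16 and 2.84 in WT to 4.45, 4.73 and 4.82 in OX7.5 (log2 difference 1.75, SE 0.20, adjusted p = 9.5e-06 in limma). AT5G52660 went from 5.99, 6.34 and 6.10 to 6.79, 6.95 and 6.93 (0.75, SE 0.15). The lines were separated in both genes, although the adjusted p of AT5G52660 was 0.051 without WT replicate 1. GI, which controls flowering and clock period, had levels of 7.71, 7.81 and 8.04 in WT against 8.04, 8.50 and 8.42 in OX7.5, and did not pass the test (log2 difference 0.47, adjusted p = 0.23). The other listed clock genes had no value here, so the state of the oscillator as a whole was not measured.

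Of 15 listed cold response genes 6 were measured, and this list was likewise chosen with earlier results of these data known. Their differences were all positive with a median of 0.72, against -0.00357 over all genes. Of the 6 genes 2 rose, against 0.912% of all genes. COR47, a dehydrin, had 8.02, 8.54 and 8.26 in WT against 9.44, 9.58 and 9.47 in OX7.5, a 2.34-fold rise (log2 1.22) with an adjusted p of 1.9e-05 that held whichever array was left out. KIN1 had 5.00, 5.66 and 4.86 in WT against 6.07, 6.72 and 6.18 in OX7.5, a log2 difference of 1.15 with an SE of 0.28. Its adjusted p of 0.035 rose above 0.05 when WT replicate 1 or 3 or any of the OX7.5 arrays was left out, to at most 0.21. The dehydrin gene LTI30 (0.84), KIN2 (0.61), COR15B (0.56) and COR15A (0.43), which encode further cold-induced protective proteins, did not pass the test. KIN1 and KIN2, and likewise COR15A and COR15B, are close copies of each other, and how far their probe sets share signal was not tested. None of the 22 listed genes of abscisic acid and drought had a probe set of its own.

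**Figure D3:**
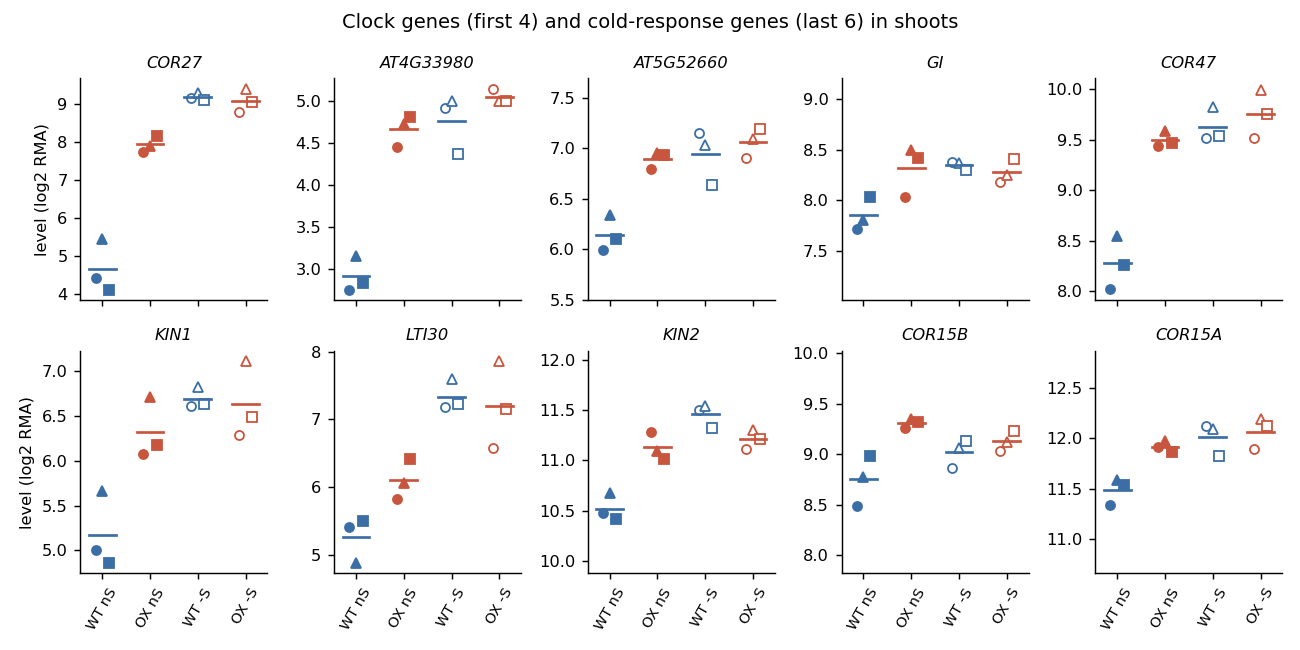
Levels (log2, y axis) of the measured clock and cold response genes on each array of WT and OX7.5 shoots, in nS and in -S, with 3 markers and a line at the mean in each group. In nS the OX7.5 arrays of COR27, AT4G33980 and COR47 lie above all WT arrays, while in -S those of COR27 and COR47 overlap.

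Among the 281 genes with an adjusted p under 0.05, 32 carried a name in the gene table (11.4%, against 10.7% of all tested genes), 17 of them higher and 15 lower. They were picked out after their values were seen, the lines did not overlap in any of them, and 7 kept the call whichever array was left out. DREB2C, an AP2/ERF factor that acts in heat and osmotic stress, went from 2.60, 3.47 and 2.79 in WT to 3.73, 5.09 and 5.18 in OX7.5 (log2 difference 1.71, adjusted p = 0.0019 in limma). ABR1, an AP2/ERF repressor of abscisic acid responses, went from 7.05, 8.06 and 6.78 to 8.42, 8.84 and 8.78 (1.38). Both kept the call whichever array was left out, but not in the 6 nS shoot arrays alone (adjusted p = 0.13 and 0.12). Of the 4 AP2/ERF factors with such a name, grouped after values were seen, these 2 rose and 1 fell. Over all genes 0.912% rose and 0.785% fell. Genes of this family that carry only a locus were not counted, so these 4 do not give the direction of the family. NGA3, a factor of leaf margin and style development, was 1.06 higher and bZIP70 0.56 higher, and neither kept the call whichever array was left out. Of 17 bZIP factors, likewise grouped after values were seen, bZIP70 rose and BZIP61 fell, beside the same shares over all genes.

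SIS, named for its induction by salt, rose from 5.19, 6.17 and 5.42 to 6.82, 7.01 and 6.75 (log2 difference 1.27), and its adjusted p was 0.058 without WT replicate 1. The cell wall was represented by EXLA1 and EXLA2, which encode expansin-like proteins and were 1.03 and 0.88 higher. They were the only genes to pass the test among 22 expansins and expansin-like genes, a family formed after values were seen, whose median was 0.16. Over all genes 0.912% rose. Both lost the call without WT replicate 1, WT replicate 3 or OX7.5 replicate 2, and EXLA2 also without OX7.5 replicate 1, with adjusted p values of up to 0.078 and 0.18. Of 51 named UDP-glycosyltransferases, which attach sugars to hormones and phenolics, a family formed after values were seen, UGT71D1 (0.88) and UGT84A3 (0.76) rose, where 0.912% of all genes did. UGT84A3 kept the call whichever array was left out, but not in the 6 nS shoot arrays alone (adjusted p = 0.11). UGT71D1 lost it without OX7.5 replicate 3 (adjusted p = 0.091) and in the 12 shoot arrays or the 6 nS shoot arrays alone. UGT76E12 had a larger difference of 1.27 but an adjusted p of 0.066, and its WT levels of 5.01, 6.74 and 4.36 overlapped with 6.12, 6.87 and 6.93 in OX7.5. The other named rises were small, namely LCR69 for a cysteine-rich peptide (0.96), IQD22 for a calmodulin-binding scaffold (0.77), BETA-VPE for a vacuolar processing enzyme (0.67), TUB9 for a beta tubulin (0.55) and GRXC2 for a glutaredoxin (0.45). Each of these 5 lost the call without certain single arrays, with adjusted p values of up to 0.21, 0.15, 0.15, 0.23 and 0.17 in this order. All of them also lost it in the 6 nS shoot arrays alone. ARR15, a response regulator induced by cytokinin, lay at 5.66, 5.31 and 5.33 in WT against 6.52, 6.34 and 6.50 in OX7.5, without overlap, but at an adjusted p of 0.066.

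Of the 15 largest falls 10 kept the call whichever array was left out. The largest fall belonged to AT4G17470, with 8.63, 8.90 and 5.77 in WT against 5.53, 5.33 and 4.69 in OX7.5 (log2 difference -2.58, SE 0.57, adjusted p = 0.016 in limma). WT replicate 3 lay close to OX7.5 in this gene, and the adjusted p rose to as much as 0.11 when an array was left out. AT1G73325, listed here among Kunitz-type protease inhibitors, fell from 6.84, 7.52 and 6.83 to 5.28, 5.10 and 4.38, a 4.43-fold change (log2 -2.15, adjusted p = 1.6e-05). It was the only one of 5 measured genes of that list to pass the test, and the list's median was -0.20. Over all genes 0.785% fell.

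Other large falls followed, whose SEs rest on the spread pooled over all groups, roots included. AT1G19210, listed here among genes of the rapid response to touch and wounding, went from 6.91, 6.51 and 6.49 in WT to 5.14, 4.76 and 4.58 in OX7.5 (log2 difference -1.81, SE 0.24). AT5G21960 went from 6.25, 5.91 and 5.44 to 4.34, 4.04 and 3.98 (-1.75, SE 0.16, adjusted p = 6.8e-07), and AT1G20500 from 6.80, 6.41 and 6.62 to 4.88, 5.12 and 5.36 (-1.49, SE 0.15). In each of the 3 genes the lowest WT array lay above the highest OX7.5 array, and the call held whichever array was left out. Of the 5 measured genes of the touch and wounding list AT1G76640 fell as well (-0.93), with an adjusted p of up to 0.23 without an array. The list's median was -0.11, and over all genes 0.785% fell.

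Jacalin-related lectins fell in part. JAL23, a lectin associated with the PYK10 complex of ER bodies, went from 7.44, 8.05 and 6.89 in WT to 5.53, 6.08 and 5.73 in OX7.5 (log2 difference -1.68, adjusted p = 0.014). JAL34 of the same complex went from 3.97, 4.90 and 4.17 to 2.95, 3.13 and 2.73 (-1.41, adjusted p = 0.0024). JAL34 kept the call whichever array was left out but not in the 12 shoot arrays alone (adjusted p = 0.063) or the 6 nS shoot arrays alone (0.056), JAL23 lost it in both and without some of the single arrays, and the other 3 measured jacalin-related lectins did not pass the test. Of 9 ER body genes, a family formed after values were seen that includes these lectins, no other passed. Over all genes 0.785% fell. NAI2, which is needed to form ER bodies, was at 7.29, 8.33 and 6.58 in WT against 6.16, 6.63 and 6.25 in OX7.5 (log2 difference -1.05, adjusted p = 0.17), and PYK10 at 8.19, 8.83 and 6.12 against 6.13, 7.25 and 7.31. ER bodies are abundant in roots and seedlings, and PYK10 stood among the root markers as well, of which the others did not pass the test. Their part in the falls of the lectins was not tested.

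The named falls included CSLA01, a family member of the glucomannan synthases, at 3.80, 6.54 and 3.94 in WT against 2.91, 3.17 and 2.89 in OX7.5. Its log2 difference of -1.77 (adjusted p = 0.022) was -0.88 without WT replicate 2, and the adjusted p was up to 0.089 when an OX7.5 array was left out. THI2.2, a thionin with antimicrobial activity, fell from 6.68, 6.91 and 6.57 to 5.84, 5.88 and 5.77 (-0.89), and was with JAL34 one of the named falls that kept the call whichever array was left out. SWEET11, a sucrose exporter that loads the phloem, fell from 8.37, 8.31 and 8.53 to 7.67, 7.65 and 7.86 (log2 difference -0.67), with an adjusted p of up to 0.065 without WT replicate 3 or OX7.5 replicate 2. The other 13 SWEET transporters did not pass the test. SWEET4 had a log2 difference of 1.14 at an adjusted p of 0.060, and SWEET13 one of -0.76 at 0.10. ORA47, an AP2/ERF factor of jasmonate synthesis, fell by 0.72, TBL26 of the family of wall acetylation enzymes by 1.17, PLIM2a, an actin-bundling protein, by 1.06, STN1, a telomere protein, by 0.89, and BZIP61 by 0.98. Each of these 5 lost the call when certain single arrays were left out, with adjusted p values of up to 0.10, 0.13, 0.24, 0.12 and 0.27 in this order, and the log2 difference of PLIM2a was -0.631 without WT replicate 3. GLR3.6, a glutamate receptor-like channel that carries wound signals between leaves, fell by 0.60 and lost the call whichever array was left out. Its difference between the lines was positive in -S shoots (0.55) and in nS roots (0.37), where it did not pass. The nS shoot effect differed from the one in -S shoots (-1.14, adjusted p = 0.0096 in limma) and from the one in roots (-0.97, adjusted p = 0.026). The remaining named falls, MSRB5 of methionine sulfoxide reduction, ATMDAR2 of ascorbate recycling, LCR76 and CPUORF47, had log2 differences between -0.61 and -0.57. None of them kept the call whichever array was left out.

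No measured gene of the machinery that NBR1 serves passed the test. Of 41 listed autophagy genes 18 were measured, and their log2 differences ran from -0.36 for AT3G53930 to 0.29 for ATG8C, a ubiquitin-like protein of the autophagosome membrane, with a median of -0.037. Of the cargo receptors and ubiquitin hubs AT2G17190 and DSK2 were measured, and of 24 proteasome genes 3 were, none of which passed. Not all hubs of interaction networks that the study names were measured, so the hubs as a group were not examined. Those that follow did not pass the test. Log2 differences were 0.10 for AP2M (AT5G46630), the medium subunit of a clathrin adaptor, 0.11 for NUP43 (AT4G30840) of the nuclear pore and 0.17 for AT5G45780. TCP15, a growth-regulating factor and the only 1 measured of 7 listed TCP factors, had a log2 difference of -0.43 (adjusted p = 0.40).

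Sulfur metabolism was sparsely covered, with 5 of 40 listed genes measured. AT1G04770, listed among genes of sulfur deficit, had 4.28, 3.55 and 3.86 in WT against 2.83, 3.01 and 3.40 in OX7.5 and fell by 0.82 on the log2 scale (SE 0.19, adjusted p = 0.020 in limma). The lowest WT array was close to the highest OX7.5 array, and the adjusted p was as high as 0.15 when an array was left out. BGLU28, a sulfur-responsive beta-glucosidase, differed by 0.19, and APS3, APS4 and SIR of sulfate reduction by -0.10, -0.21 and -0.19, none past the test.

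In some lists all differences had one sign although no member passed the test. The 5 measured genes of the unfolded protein response had negative log2 differences with a median of -0.42, and so did the 4 measured flavonoid genes, with a median of -0.91. DFR of anthocyanin synthesis was at 8.92, 8.75 and 7.67 in WT against 6.51, 7.28 and 7.39 in OX7.5, a difference of -1.38 with an SE of 0.73. Of 8 heat shock genes the median was -0.063. Plant defensins of the PDF1.2 group differed by -2.55 (PDF1.2b), -1.99 (PDF1.2) and -1.36 (PDF1.2c), but WT replicate 3 stood far above the other WT arrays in each, with log2 levels of 9.91, 7.84 and 5.69, and the adjusted p values lay between 0.16 and 0.39. The PDF1.2 genes are near-identical copies whose probe sets can share signal. The 63 plastid-encoded genes ranged from -0.083 to 0.14, and none passed.

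**Figure D4:**
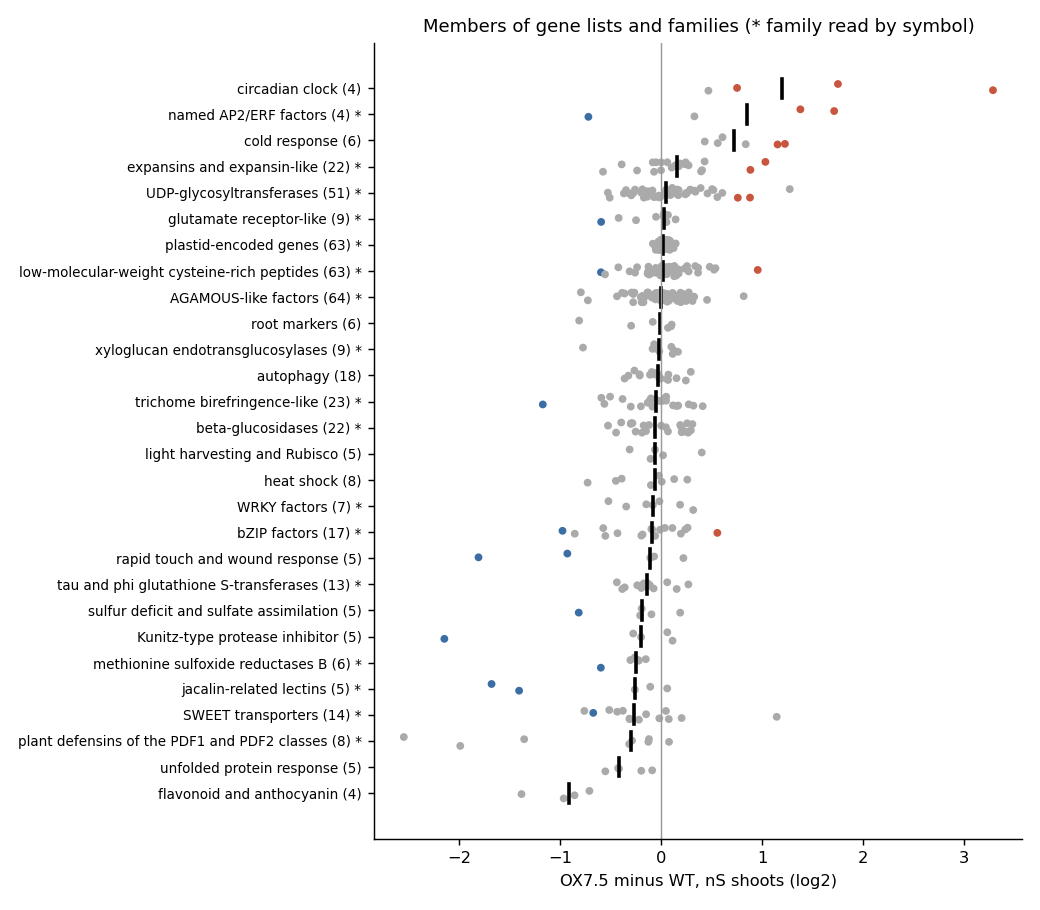
Log2 difference between OX7.5 and WT in nS shoots (x axis) of every measured member of each gene list (y axis), with 1 point for each gene (red rose, blue fell, grey did not pass) and a bar at the median. Clock and cold response genes lie above 0, flavonoid and unfolded protein response genes below 0, and the 18 autophagy genes spread about 0.

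Whether the same genes differed between the lines elsewhere was read from the other arrays, whose group means do not enter the nS shoot difference although their spread was pooled into its p. In -S shoots 64 genes met the DEG thresholds as higher in OX7.5 (0.387%) and 133 as lower (0.804%), and at an adjusted p under 0.05 there were 4 (0.0242%) and 9 (0.0544%). In nS roots the DEG thresholds were met by 252 higher (1.52%) and 285 lower genes (1.72%), and an adjusted p under 0.05 by 69 (0.417%) and 72 (0.435%). Of the 253 higher DEGs of nS shoots, 5 were again higher DEGs in -S shoots (1.98%) and 6 were lower DEGs (2.37%), and in roots 6 were higher (2.37%) and 9 lower (3.56%). Their differences were positive in 45.1% of cases in -S shoots and in 47.4% in roots, where 54.6% and 48% of all genes were positive. Of the 278 lower DEGs 21 were again lower in -S shoots (7.55%) and 5 in roots (1.8%), with medians of -0.011 and -0.031.

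The difference between the conditions was tested directly. The effect of OX7.5 in nS shoots differed from that in -S shoots for 89 genes (0.538%) at an adjusted p under 0.05, and from that in roots for 122 (0.737%). These counts depended on the pooled spread, and in the 12 shoot arrays alone 11 genes passed the test by sulfur, in the ordinary ANOVA 25. Among the 15 largest rises 14 passed each of these tests in the fit to all arrays, the exception being AT3G22235, and among the 15 largest falls 8 and 7 did. The genes were chosen for their difference on the nS shoot arrays, which these tests use again, so the choice favours such a result and the counts are a description. In -S shoots AT1G68500 lay at 8.39, 8.48 and 7.83 in WT against 7.53, 8.96 and 8.64 in OX7.5 (log2 difference 0.14), and COR27 at 9.14, 9.29 and 9.09 against 8.80, 9.40 and 9.04 (-0.10). The lines overlapped in both. In both genes the mean of either line in -S was above that of OX7.5 in nS, and WT alone differed between -S and nS by 4.51 for AT1G68500 and 4.53 for COR27 on the log2 scale, a comparison that uses the same WT nS arrays. For AT1G70640 the difference of WT between the supplies was 2.51, beside a difference between the lines of 2.48 in nS and 0.04 in -S. In roots OX7.5 and WT differed by 0.03 for AT1G68500, -0.11 for COR27 and 0.41 for AT1G70640.

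**Figure D5:**
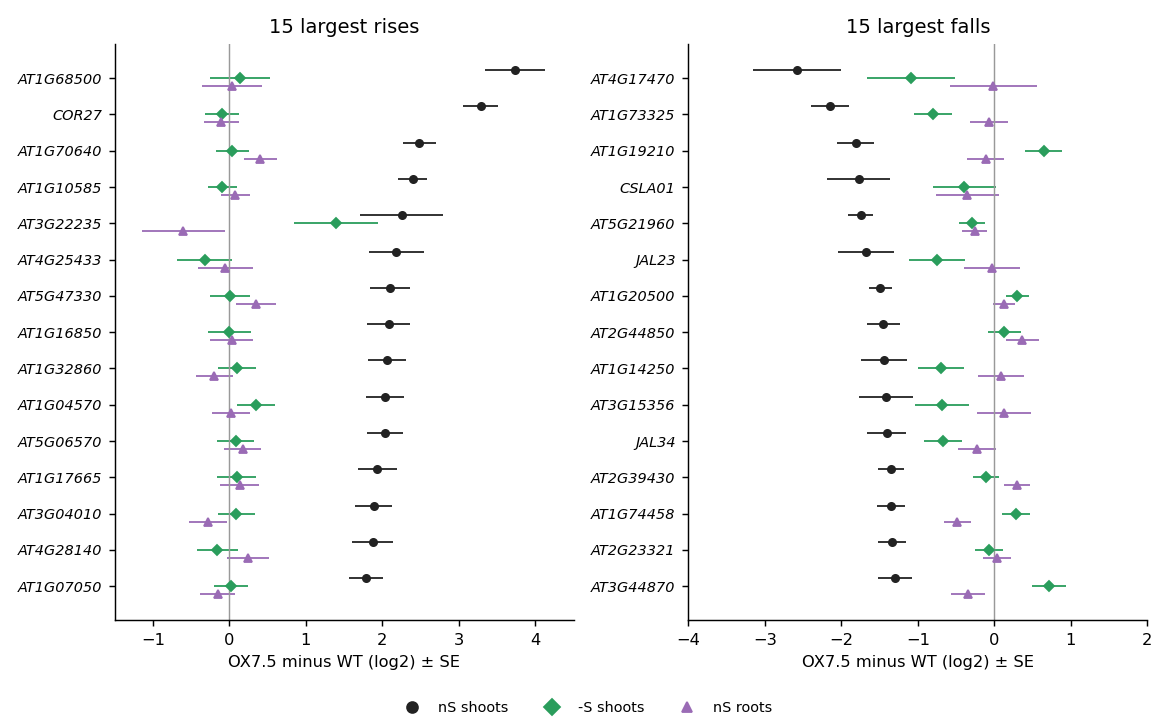
Log2 difference between OX7.5 and WT (x axis, bars are SE) of the 15 largest rises and the 15 largest falls of nS shoots (y axis), with a marker each for nS shoots, -S shoots and nS roots. In 14 of the 15 rises the difference in -S shoots is under the 1.5-fold threshold, and the same number is in roots, while of the 15 falls 7 are under it in -S shoots and 15 in roots.

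A few genes differed alike in more than one setting, and they were picked out for that. AT1G71520 was at 4.89, 4.53 and 4.61 in WT against 3.84, 3.64 and 4.26 in OX7.5 in nS (log2 difference -0.76, adjusted p = 0.034 in limma), and at 4.25, 5.05 and 5.00 against 3.47, 3.35 and 3.88 in -S (-1.20, adjusted p = 0.005). AT1G68620 differed by -0.998 in nS and -1.29 in -S, with adjusted p values of 0.042 and 0.041. Both fell in both sulfur supplies without overlap between the lines, although in nS neither kept the call whichever array was left out. FIO1, an RNA methyltransferase, and its neighbour AT2G21080 were higher DEGs in both supplies (0.67 and 0.69 in nS, 0.65 and 0.72 in -S) but passed no adjusted test. In roots AT1G04770 (-0.80), AT1G76240 (-0.78), AT1G76590 (0.81) and AT2G15880 (1.18) differed in the same direction as in shoots (-0.82, -1.03, 0.99 and 1.22), each with an adjusted p under 0.05 in both organs. AT2G15880 had 6.65, 7.35 and 7.26 in WT shoots and 8.40, 8.36 and 8.16 in OX7.5 shoots, and 2.78, 3.20 and 3.28 against 4.46, 4.65 and 3.69 in roots, where levels belong to a separate scale. Opposite signs were seen as well, for example for AT2G15830 with 1.58 in shoots and -0.82 in roots. In roots this gene did not pass the test (adjusted p = 0.14 in limma).

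DEGs were found on all 5 chromosomes. The share of tested genes that were higher DEGs was 1.01% to 2.05% on the 5 chromosomes, and that of lower DEGs 1.31% to 2.22%. Of 11622 pairs of neighbouring tested genes within 5000 bases of each other in the TAIR10.1 gene table, 713 held at least 1 DEG and 46 held 2. Both members were higher in 19 of these 46, both lower in 25 and opposite in 2. Over all tested genes 3.21% were DEGs. Whether DEGs lay side by side more often than this share gives was not tested. The pairs included AT4G33970 with AT4G33980 (log2 differences 1.61 and 1.75), AT1G73320 with AT1G73325 (-0.97 and -2.15), AT1G20490 with AT1G20500 (-0.91 and -1.49) and AT5G42895 with COR27 (0.71 and 3.28). Whether overlapping or adjacent transcripts share signal on these probe sets was not tested.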

How the data were processed

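The authors deposited 1 table of log2 values for 28583 probe sets on 24 arrays, made with RMA and Partek per the submitters' processing notes in the labels, with versions not given in the sources used here. No detection calls came with it. Shoots and roots had different array medians, so levels were compared only within an organ. Groups followed the sample titles. Of the probe sets, 16746 were annotated to exactly 1 gene, and the brightest probe set of a gene was kept (194 dropped, 16552 genes). Names came from the TAIR10.1 gene table (16512 matched, 1764 with a name).

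With R 4.3.3 and limma 3.58.1, a linear model with a mean for each of the 8 groups used all 24 arrays (16 residual degrees of freedom, empirical Bayes). DEGs differed by 1.5-fold or more with an unadjusted p under 0.05 (the cut-offs of the methods, which take p from a 3-way ANOVA and name no adjustment), and Benjamini-Hochberg adjusted p values over all genes were computed beside it. The fit was also run on simulated data. Their noise was independent, with the same spread of a gene in all groups, so they do not bear on unequal spreads. Named genes were the 15 largest rises and 15 largest falls with an adjusted p under 0.05, a fold of at least 1.5 and no overlap, up to 5 members of each list, and genes the study names. Genes described as chosen after values were seen lie outside that rule. Members and lists were chosen with earlier results of these data known. Alternatives were other sets of arrays, an ordinary ANOVA, an intensity trend, a filter on dim genes, the mean of probe sets, every probe set, quantile normalization, array weights, a fold of 2, a replicate block and leaving out each array. Precision is limited by 3 arrays per group.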

Additional observations from a re-analysis of the deposited data

Results flagged for a closer look

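The effect of OX7.5 differed between nS and -S shoots for 89 genes at an adjusted p under 0.05 of the interaction in limma. By the size of the difference between the effects (nS minus -S, log2), AT1G68500 (3.59), COR27 (3.38), AT4G25433 (2.51), AT1G10585 (2.49) and AT1G70640 (2.45) led the genes with a more positive effect in nS. AT1G19210 (-2.45), AT3G44870 (-2.01), AT1G20500 (-1.79), AT1G74458 (-1.63) and AT3G11773 (-1.59) led those with a more negative one.

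The effect differed between nS shoots and nS roots for 122 genes. The differences between the effects (shoots minus roots, log2) were 3.70 for AT1G68500, 3.39 for COR27, 2.40 for AT2G15830, 2.32 for AT1G10585 and 2.26 for AT1G32860. At the other end they were -2.08 for AT1G73325, -1.82 for AT2G44850, -1.70 for AT1G19210, -1.65 for AT2G39430 and -1.62 for AT1G20500.

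Probe sets that name no gene or several genes were left out of the comparison above. In a fit to every probe set, 212 of these 11837 passed an adjusted p under 0.05, 122 higher and 90 lower in OX7.5. Of them 203 had no gene in the annotation and 9 had several. Their log2 differences ran from -2.16 to 2.26.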

How the results depend on the processing

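The 531 DEGs became 1017 when every probe set was tested, 126 at a fold of 2, and 560 to 867 when an array was left out, the highest without WT replicate 2. The 281 genes with an adjusted p under 0.05 became 117 in the 12 shoot arrays alone (70.1% higher), 52 in the 6 nS shoot arrays alone (69.2%), 173 in the ordinary ANOVA and 493 with every probe set, and 152 (without WT replicate 3) to 421 (without WT replicate 2) when an array was left out, with 163, 186, 164 and 174 without WT replicate 1 and OX7.5 replicates 1, 2 and 3. In the main comparison 53.7% were higher. The 89 genes whose effect differed by sulfur became 11 in the 12 shoot arrays, 25 in the ANOVA and 134 with every probe set, and 43 (without WT nS replicate 3) to 215 (without WT nS replicate 2) when an array was left out, with 56, 47 and 54 without WT nS replicate 1, OX7.5 nS replicate 2 and replicate 2 of WT in -S, and 141 when replicate 2 of OX7.5 in -S was dropped. The 122 that differed by organ became 61 in the ANOVA and 249 with every probe set, and 66 (without OX7.5 shoot replicate 2) to 307 (without WT root replicate 3) when an array was left out, with 204 without WT shoot replicate 2 and 74 to 81 without WT shoot replicate 1 or 3, OX7.5 shoot replicate 3, WT root replicate 1 or OX7.5 root replicate 1. Fewer arrays leave fewer degrees of freedom. The fit to all arrays also pools the spread of roots, where a gene can be low and vary little. WT nS roots had levels of 1.12, 0.84 and 0.51 for AT1G68500, for example. The share of each in the changes of the counts was not tested.

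Same-numbered nS shoot arrays of the lines had deviations that correlated at -0.24, 0.081 and -0.12, which gave no sign of pairing between the lines. These values do not bear on pairing between shoots and roots of the same number, which was not tested. In AT3G01345, described below, the highest WT levels fell on the same replicate numbers in both organs. The main fit treated all arrays as independent, and so did its test by organ. With a replicate block the counts were 535 DEGs, 300 genes with an adjusted p under 0.05, 104 by sulfur and 131 by organ.

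Among the genes named, signs turned only for differences that had not passed the test. When an array was left out, the log2 difference ranged from -0.0941 to 0.162 for AT3G04330 (-0.0132 without OX7.5 replicate 1), from -0.35 to 0.125 for JAL33, from -0.306 to 0.0271 for APS3 (0.0247 without WT replicate 3), from -0.33 to 0.0128 for APS4, from -0.109 to 0.312 for AT4G30840 and from -0.00194 to 0.187 for AT5G46630. PDF1.2 ranged from -3.26 to 0.0763 and PDF1.2c from -2.07 to 0.0161, both positive without WT replicate 3. With array weights APS3 became 0.0366. Of the 15 largest rises 11, and of the 15 largest falls 8, stayed past the threshold under every alternative. Among the DEGs, 36% of the higher and 42.1% of the lower were under the array median in a line, against 57.5% of all genes.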

Other observations

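AT3G01345, chosen after its values were seen, had the largest negative log2 difference among the DEGs of nS shoots, -3.89 with an SE of 1.38 (adjusted p = 0.21 in limma), and its levels fell into separate clusters. In nS shoots its log2 level was 3.02, 9.01 and 8.79 in WT against 3.28, 3.04 and 2.82 in OX7.5. In -S shoots it was 3.01, 3.18 and 8.65 in WT against 3.35, 3.21 and 2.85 in OX7.5. In nS roots it was 5.05, 7.64 and 7.77 in WT against 1.80, 2.51 and 2.19 in OX7.5, a log2 difference of -4.65. In -S roots WT had 2.45, 2.38 and 7.70 and OX7.5 had 2.04, 2.52 and 2.06. High levels were thus seen in some WT samples of each of the 4 settings and in none of the 12 OX7.5 arrays. The highest WT levels were on replicates 2 and 3 in nS and on replicate 3 in -S, in shoots and roots alike. Whether same-numbered shoots and roots came from the same plants was not tested, so the settings may not be separate occurrences.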
